A study of Mus musculus with 4 samples.

Results

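Coregulators decide what a retinoic acid receptor does to its target genes, and the levels of 9 coregulator genes are described here in spatial transcriptomes of mouse brain organoids. The genes were chosen by name: Ncor1, Hdac3 and Nrip1 on the repressing side, Ncoa1, Ncoa2, Ncoa3, Ep300 and Crebbp on the activating side, and Med1 of the Mediator complex. All 9 had a row in each of the 4 sections, among 19783 genes listed in all of them. The organoids were grown from CARLIN/Cas9 mouse embryonic stem cells, so every group carries the lineage barcode and Cas9, and they were 3 months old. From day 9 the VitaminA group received 2% B27 supplement with vitamin A, the ATRA group 1 µM of the pan-receptor agonist all-trans retinoic acid, and the BMS753 group 1 µM of an agonist of receptor alpha. The BMS961+BMS641 group received agonists of receptors gamma and beta at 0.1 µM. Each group has 1 section, and several organoids shared a mold, so the groups have no replicates and no difference between them could be tested.

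Without ligand, a retinoic acid receptor paired with a retinoid X receptor holds a corepressor complex on DNA, built on the scaffold protein NCOR1 with the histone deacetylase HDAC3. Binding of an agonist releases that complex and lets the steroid receptor coactivators NCOA1 to NCOA3 dock. These bring along the acetyltransferases EP300 and CREBBP. Mediator, which contacts RNA polymerase, docks on the receptor through its subunit MED1. NRIP1 is an exception, since it docks on receptors that have bound their agonist and represses them. Most of these proteins are shared by many nuclear receptors and are regulated by protein modification as well as by transcript level.

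The sections held 552 spots for VitaminA, 593 for ATRA, 469 for BMS753 and 365 for BMS961+BMS641, and a spot can hold several cells. A level is the mean of the deposited signal over the spots of a section, given as ppm, parts in 1e6 of the section's signal. The range over the 4 quadrants of a section describes variation within it and is no replicate error. Depth per spot is unknown, because the tables analysed hold normalised values. In such tissue averages, fewer cells with a transcript and less transcript per cell cannot be told apart. Neuronal markers were present, with 7 of 7 above the lowest class in at least 5% of spots of every section, while of 6 astroglial markers 4 or 5 reached that share. The 4 epithelial markers summed to 1445 ppm in BMS961+BMS641 and to between 73.0 and 108.0 ppm elsewhere, but only Epcam and Cdh1 were higher there, and Krt8 stood at 18.7 ppm against 52.5 ppm in VitaminA. Mesenchymal markers summed to 214 ppm in VitaminA and to between 47.0 and 135.0 ppm with the ligands.

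A property of the files bears on Ep300 and Crebbp. In each spot the lowest positive values rise in the order of the rows, and this run is called the lowest class. In 551 of 552 VitaminA spots, 592 of 593 ATRA spots, 468 of 469 BMS753 spots and 364 of 365 BMS961+BMS641 spots, every gene at 0 stood in the file before the first gene of the lowest class. Zeros and the lowest class thus formed a single run in file order. Ep300 stands in row 20504 and Crebbp in row 18711 of the 21639 rows of VitaminA, whereas the other 7 members stand in rows 5146 to 11609. Ep300 accordingly had a positive value in at least 99.1% of the spots of every section, but a value above the lowest class in 14.5% to 19.7%. The share of the Ep300 signal that lay in the lowest class was highest in BMS753 at 71.1%, followed by BMS961+BMS641 at 65.3%, ATRA at 50.5% and VitaminA at 47.7%. For Crebbp this share was at most 4.65%, and for the other 7 members at most 0.200%. Values with the lowest class set to 0 are therefore given beside the deposited ones for many results.

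**Figure D1:**
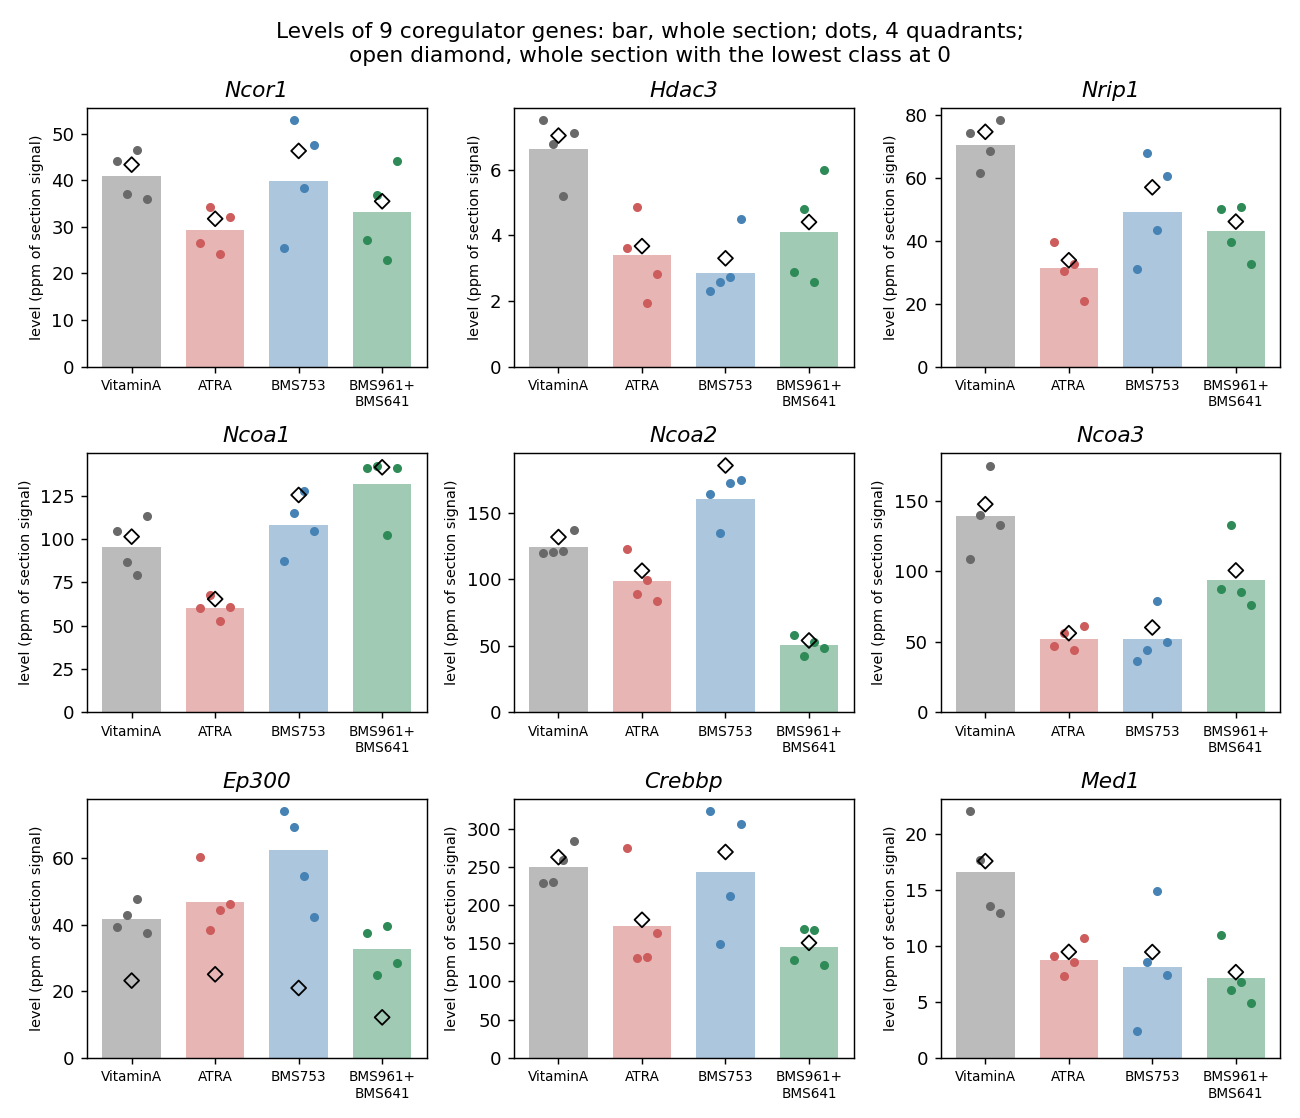
Levels of the 9 coregulator genes in ppm of the section signal (linear axes from 0). Bars are whole sections, dots the 4 quadrants of a section, and open diamonds the whole section with the lowest class set to 0. Ncoa3, Nrip1, Hdac3 and Med1 stand highest in VitaminA, Ncoa2 is lowest in BMS961+BMS641, and the Ep300 diamonds lie far below the bars.

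Over all spots, the corepressor scaffold gene Ncor1 differed little in level between sections. Its level was 40.9 ppm in VitaminA (quadrants 35.9 to 46.6), 39.9 ppm in BMS753 (25.4 to 52.9), 33.1 ppm in BMS961+BMS641 (22.9 to 44.0) and 29.3 ppm in ATRA (24.2 to 34.2). The quadrants of ATRA lay below all those of VitaminA, and neighbours in this order overlapped. The log2 ratio to VitaminA was -0.47 with ATRA, -0.03 with BMS753 and -0.30 with BMS961+BMS641. Set beside the median of all genes compared, these values became -0.14, -0.34 and -0.04. Once the lowest class was at 0, BMS753 had the highest Ncor1 level, at 46.3 ppm against 43.3 ppm in VitaminA (log2 ratio 0.09). Ncor1 was above the lowest class in 47.6% of VitaminA spots, 40.6% of ATRA spots, 32.6% of BMS753 spots and 51.5% of BMS961+BMS641 spots. In spots with 3000 to 5000 genes above it, chosen after seeing the data, the shares were 40%, 40%, 35.6% and 38.6%. The levels in these spots, with the lowest class at 0, lay further apart. They were 44.6, 30.1, 56.2 and 32.1 ppm in the same order, and the log2 ratio of BMS753 to ATRA was 0.88. RefSeq (GRCm38.p6) lists a protein-coding gene as overlapping Ncor1 (Ttc19), Ncoa1 (Gm51963) and Ncoa3 (LOC115489489), and how the counting treated strand is not given in the sources used here.

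Hdac3, the deacetylase of the NCOR1 complex, was seen sparsely. It was above the lowest class in 10.5% of VitaminA spots (58 of 552), 7.42% of ATRA spots (44 of 593), 6.40% of BMS753 spots (30 of 469) and 12.1% of BMS961+BMS641 spots (44 of 365). Its level was 6.64 ppm in VitaminA (quadrants 5.19 to 7.52), 4.11 ppm in BMS961+BMS641 (2.56 to 5.98), 3.39 ppm in ATRA (1.95 to 4.86) and 2.85 ppm in BMS753 (2.30 to 4.50). VitaminA was thus the highest section, though its quadrants overlapped with those of BMS961+BMS641. The quadrants of the 3 ligand sections overlapped each other. The log2 ratios to VitaminA were -0.80 with ATRA, -0.99 with BMS753 and -0.58 with BMS961+BMS641. With 5 ppm in the place of 1 ppm as pseudocount, the BMS753 ratio over all spots was -0.57, so its size rests on values near the floor.

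Nrip1 encodes a corepressor of agonist-bound receptors, and its own transcript is induced by retinoic acid in human cell lines. It stood lowest with ATRA, at 31.2 ppm (quadrants 20.8 to 39.5), then 42.9 ppm in BMS961+BMS641 (32.5 to 50.8), 49.1 ppm in BMS753 (31.0 to 67.8) and 70.3 ppm in VitaminA (61.3 to 78.3). All quadrants of ATRA and of BMS961+BMS641 lay below those of VitaminA, while BMS753 overlapped with it. The log2 ratio to VitaminA was -1.15 with ATRA (-1.87 to -0.62 over the 16 pairs of quadrants), -0.51 with BMS753 (-1.31 to 0.14) and -0.70 with BMS961+BMS641 (-1.24 to -0.27). Nrip1 was above the lowest class in 63.4% of VitaminA spots (95% exact binomial interval 59.2% to 67.4%), 36.4% of ATRA spots (32.5% to 40.4%), 40.5% of BMS753 spots (36.0% to 45.1%) and 55.1% of BMS961+BMS641 spots (49.8% to 60.2%). These intervals, here and below, cover counting error only. Spots with 3000 to 5000 genes above the lowest class, a choice made after seeing the data, gave shares of 56.5%, 35.9%, 44.8% and 45.0%.

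The sequence around the starts of Nrip1 and Med1 (250 bases before to 50 after, RefSeq, GRCm38.p6) is shown, since both genes were lower in each ligand section and had a window in the table. The same held for Ncor1 and Crebbp as deposited, and their windows are described without their letters. It was searched on both strands for the hexamer AGGTCA, its relative AGTTCA, its relative GGGTCA and the fourth form GGTTCA, which receptors for retinoids can bind as pairs, and matches on either strand are in capitals. The table holds 2 Nrip1 starts, at chr16:76373778-76374077 and chr16:76373000-76373299, and a Med1 start at chr11:98192857-98193156, all on the minus strand.
Nrip1 upstream start: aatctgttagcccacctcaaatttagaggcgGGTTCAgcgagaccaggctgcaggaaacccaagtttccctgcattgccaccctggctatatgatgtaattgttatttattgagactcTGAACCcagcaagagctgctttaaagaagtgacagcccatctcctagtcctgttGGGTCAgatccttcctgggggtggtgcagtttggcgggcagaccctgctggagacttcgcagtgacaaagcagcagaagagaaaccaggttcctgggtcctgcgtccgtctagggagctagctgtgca
Nrip1 downstream start: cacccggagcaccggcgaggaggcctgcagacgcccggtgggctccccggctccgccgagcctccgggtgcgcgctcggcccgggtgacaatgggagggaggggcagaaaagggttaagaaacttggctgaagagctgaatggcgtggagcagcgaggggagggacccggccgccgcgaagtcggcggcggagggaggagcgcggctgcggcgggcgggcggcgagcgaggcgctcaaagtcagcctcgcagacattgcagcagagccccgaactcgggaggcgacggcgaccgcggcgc
Med1 start: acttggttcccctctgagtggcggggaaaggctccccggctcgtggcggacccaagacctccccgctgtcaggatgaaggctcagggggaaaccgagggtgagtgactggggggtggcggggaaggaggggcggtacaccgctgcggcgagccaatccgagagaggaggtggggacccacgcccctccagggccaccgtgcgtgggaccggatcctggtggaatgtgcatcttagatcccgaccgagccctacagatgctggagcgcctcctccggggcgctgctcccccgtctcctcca
The upstream Nrip1 window holds 3 matches, which begin at bases -219, -132 and -78 from the start. The middle match, printed as its reverse complement, lies on the opposite strand from the others. The downstream Nrip1 window and the Med1 window hold none. Of the 2 Ncor1 windows 1 holds a match, at base -215, and the Crebbp window holds none, nor do those of Ncoa1 and Ep300. Of the 32851 windows in the table, 43.7% hold at least 1 of these hexamers and 13.1% at least 2. Direct repeats of them with a spacer of 1, 2 or 5 bases are rare, in 0.222%, 0.268% and 0.0974% of all windows. No member window described here held one. Windows of 6 of the 9 members are described. Those of Ncoa2 and Ncoa3 were not in the table. Hdac3, also lower in each ligand section, was left out with its chromosome, 18. The GC content was 52.7% in the upstream Nrip1 window, 73.3% in the downstream Nrip1 window and 68.3% in the Med1 window. The median over all windows was 52.7%.

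The steroid receptor coactivators are close relatives, and their levels moved apart between sections. Ncoa1 encodes the founding member of the family. Its level was highest in BMS961+BMS641, at 131.9 ppm (quadrants 102 to 142), then 108.2 ppm in BMS753 (87.6 to 128), 95.7 ppm in VitaminA (79.5 to 113) and 60.4 ppm in ATRA (52.5 to 67.4). The quadrants of ATRA lay below those of the other 3 sections, which overlapped in turn. The log2 ratio to VitaminA was -0.65 with ATRA (-1.09 to -0.23), 0.18 with BMS753 (-0.37 to 0.68) and 0.46 with BMS961+BMS641 (-0.14 to 0.83). Ncoa1 was above the lowest class in 82.7% of BMS961+BMS641 spots (95% exact binomial interval 78.5% to 86.5%) against 67.0% of VitaminA spots (62.9% to 70.9%).

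Ncoa2 showed another order. It stood at 50.4 ppm in BMS961+BMS641 (quadrants 42.2 to 58.3), 98.3 ppm in ATRA (83.3 to 122), 124 ppm in VitaminA (119 to 137) and 159.9 ppm in BMS753 (135 to 174). The quadrants of BMS961+BMS641 lay below those of all other sections, and those of ATRA and VitaminA overlapped. The log2 ratio of BMS961+BMS641 to VitaminA was -1.29 (-1.67 to -1.02), past 2-fold in all 16 pairs of quadrants as deposited. The nearest pair was at -0.98 once the lowest class was at 0. It was -0.33 with ATRA and 0.36 with BMS753. Where Ncoa2 was above the lowest class, its mean was 82.6 ppm in BMS961+BMS641 and between 155 and 234 ppm elsewhere. The share of such spots was 60.8% in BMS961+BMS641 and between 63.2% and 76.3% elsewhere, highest in VitaminA. In spots with 3000 to 5000 genes above the lowest class, chosen after seeing the data, the order was another. The shares there were 56.4% in BMS961+BMS641, 70.4% in ATRA, 68.4% in VitaminA and 78.7% in BMS753.

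Ncoa3, a coactivator gene that is amplified in some human breast cancers, was lower with ATRA and with BMS753. Its level was 139 ppm in VitaminA (quadrants 109 to 175), 93.9 ppm in BMS961+BMS641 (76.1 to 133), 51.9 ppm in ATRA (44.3 to 61.5) and 51.9 ppm in BMS753 (36.4 to 79.0). ATRA and BMS753 lay below VitaminA in every quadrant, and BMS961+BMS641 overlapped with VitaminA and with BMS753. The log2 ratio to VitaminA was -1.41 with ATRA (-1.96 to -0.81), -1.41 with BMS753 (-2.24 to -0.45) and -0.57 with BMS961+BMS641 (-1.19 to 0.29). Ncoa3 was above the lowest class in 75.0% of VitaminA spots and 68.8% of BMS961+BMS641 spots, against 42.5% of ATRA spots (95% exact binomial interval 38.5% to 46.6%) and 39.2% of BMS753 spots (34.8% to 43.8%). In spots with 3000 to 5000 genes above the lowest class, the shares were 69.8%, 67.9%, 46.7% and 41.4% in the same order.

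**Figure D2:**
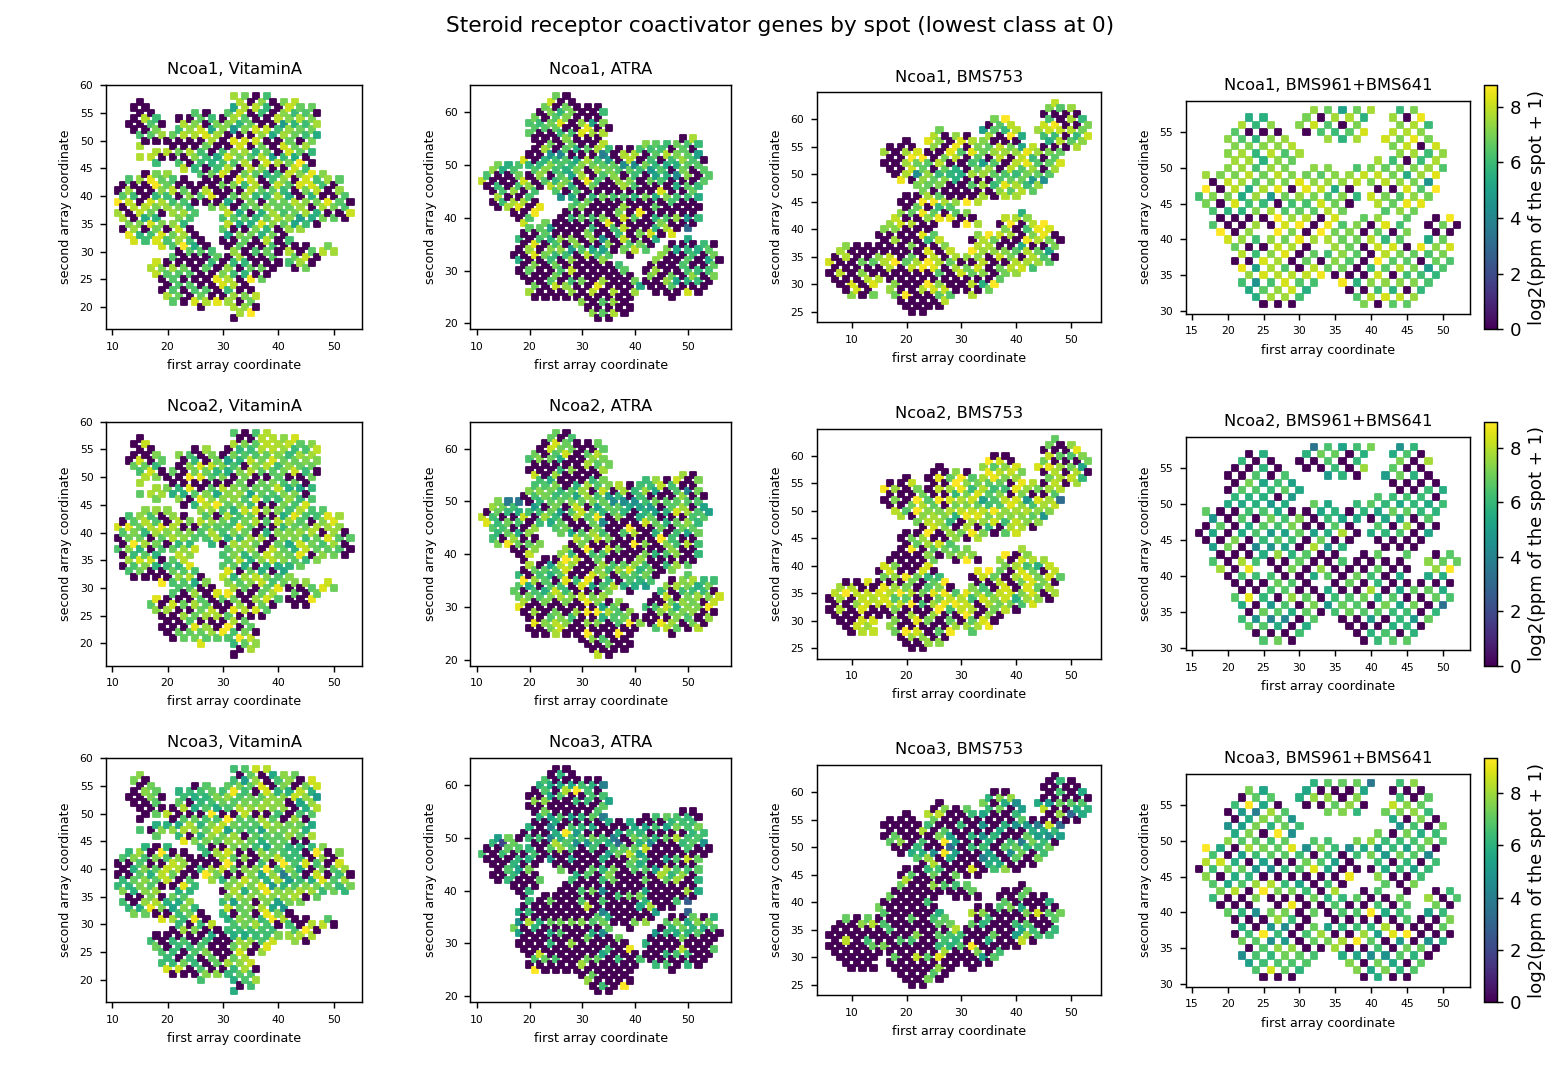
Spots of each section in array coordinates, coloured by log2 of the value plus 1, where the value is ppm of the signal of that spot and the lowest class is at 0. The colour scale is set per gene and values above its top share the top colour. Ncoa3 is above the lowest class in 75.0% of VitaminA spots and 39.2% of BMS753 spots, and Ncoa1 in 82.7% of BMS961+BMS641 spots.

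The balance between these relatives was compared as their log2 ratio within a section. Ncoa1 over Ncoa2 was 1.37 in BMS961+BMS641 (quadrants 0.95 to 1.73), -0.37 in VitaminA (-0.60 to -0.19), -0.69 in ATRA (-1.01 to -0.39) and -0.56 in BMS753 (-0.90 to -0.23). Every quadrant of BMS961+BMS641 was positive and every quadrant of the other sections negative. Ncoa2 over Ncoa3 was 0.91 in ATRA (0.43 to 1.37), 1.60 in BMS753 (1.12 to 2.14), -0.17 in VitaminA (-0.53 to 0.14) and -0.89 in BMS961+BMS641 (-1.64 to -0.58). ATRA and BMS753, which share a dose, thus lay above VitaminA in every quadrant, and BMS961+BMS641, at its lower dose, below it. These values were nearly the same once the lowest class was at 0. The ratio of a single section says nothing of which transcript is more abundant, since the capture of different genes was not calibrated, so its shift between sections is what is described.

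**Figure D3:**
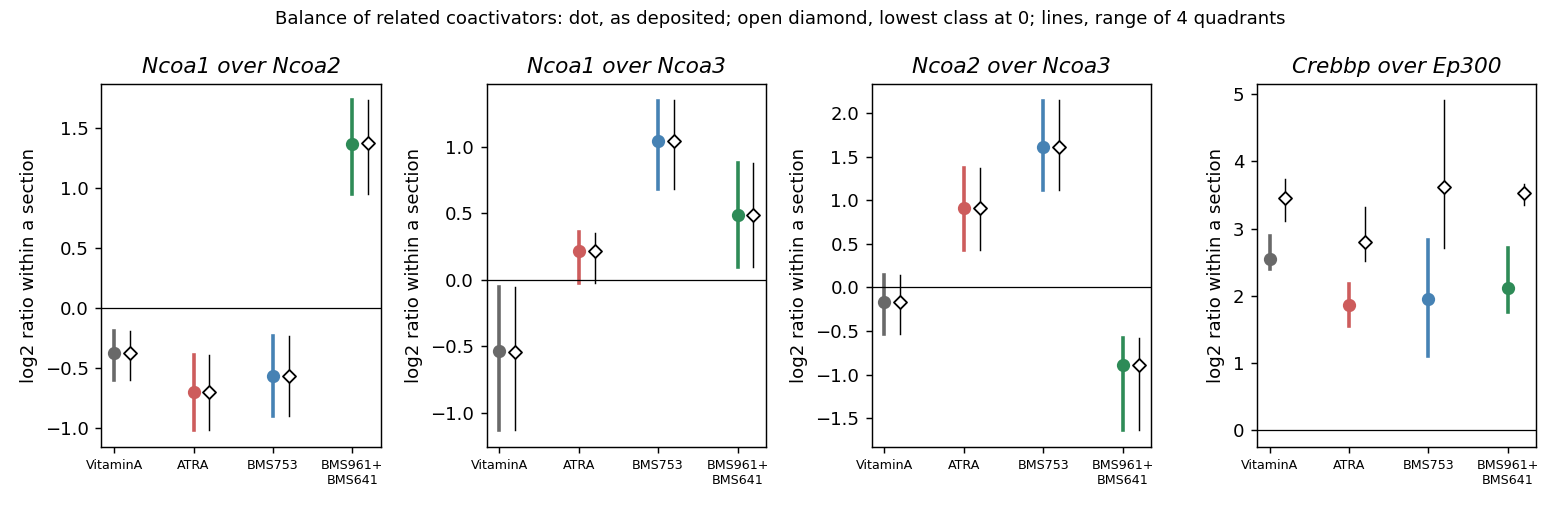
Log2 ratio of related coactivator genes within each section. Dots are whole sections as deposited, open diamonds whole sections with the lowest class at 0, and lines the range of the 4 quadrants. Ncoa1 over Ncoa2 lies above 0 in BMS961+BMS641 alone, and the diamonds of Crebbp over Ep300 lie above the dots.

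The acetyltransferase Crebbp binds CREB and many other factors, and nuclear receptors recruit it through the steroid receptor coactivators. Its level was 250.1 ppm in VitaminA (quadrants 229 to 284), 244 ppm in BMS753 (149 to 323), 172 ppm in ATRA (131 to 275) and 145 ppm in BMS961+BMS641 (121 to 169). The quadrants of BMS961+BMS641 lay below those of VitaminA, and in ATRA a single quadrant at 275 ppm stood apart from the others at 131 to 163 ppm. The log2 ratio to VitaminA was -0.78 with BMS961+BMS641 (-1.22 to -0.43), -0.54 with ATRA (-1.11 to 0.26) and -0.04 with BMS753 (-0.92 to 0.50). Once the lowest class was at 0, BMS753 had the highest level, at 269.7 ppm against 262.9 ppm in VitaminA (log2 ratio 0.04). In spots with 3000 to 5000 genes above that class, chosen after seeing the data, VitaminA was highest again. It stood there at 251 ppm against 193 ppm in BMS753 (log2 ratio -0.38). Crebbp was above the lowest class in 85.5% of VitaminA spots (472 of 552), 74.0% of BMS961+BMS641 spots, 61.0% of BMS753 spots and 60.7% of ATRA spots. In the spots with 3000 to 5000 genes these shares were 84.2%, 71.4%, 71.8% and 64.4%.

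For Ep300, the close relative of Crebbp, the deposited level gave no stable order. As deposited it was 62.4 ppm in BMS753 (quadrants 42.3 to 74.0), 46.7 ppm in ATRA (38.5 to 60.1), 41.8 ppm in VitaminA (37.4 to 47.5) and 32.6 ppm in BMS961+BMS641 (24.9 to 39.4). With the lowest class at 0 it was 20.9 ppm (11.6 to 25.1), 25.1 ppm (22.4 to 29.1), 23.2 ppm (17.5 to 30.7) and 12.1 ppm (9.98 to 13.8) in the same order of sections. BMS753 was then no longer the highest section. Its log2 ratio to VitaminA was 0.57 as deposited and -0.14 with the lowest class at 0. BMS961+BMS641 had a ratio of -0.35 as deposited and -0.88 with the lowest class at 0, where its quadrants lay below those of VitaminA and ATRA and overlapped with those of BMS753. The log2 ratio of Crebbp over Ep300 was 2.55 in VitaminA and 1.95 in BMS753 as deposited, but 3.45 and 3.62 with the lowest class at 0. Ep300 was above the lowest class in 109 of 552 VitaminA spots, 100 of 593 ATRA spots, 68 of 469 BMS753 spots and 59 of 365 BMS961+BMS641 spots.

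Med1 encodes the Mediator subunit that binds agonist-bound receptors directly. Its level was 16.6 ppm in VitaminA (quadrants 12.9 to 22.0), 8.74 ppm in ATRA (7.29 to 10.7), 8.15 ppm in BMS753 (2.37 to 14.9) and 7.13 ppm in BMS961+BMS641 (4.92 to 11.0). VitaminA was highest, and all quadrants of ATRA and of BMS961+BMS641 lay below it. The log2 ratio to VitaminA was -0.85 with ATRA (-1.47 to -0.25), -0.94 with BMS753 (-2.77 to 0.19) and -1.11 with BMS961+BMS641 (-1.96 to -0.22). Med1 was above the lowest class in 27.5% of VitaminA spots (95% exact binomial interval 23.8% to 31.5%), against 13.3% with ATRA (10.7% to 16.3%), 13.9% with BMS753 (10.9% to 17.3%) and 17.8% with BMS961+BMS641 (14.0% to 22.1%). In spots with 3000 to 5000 genes above the lowest class, these shares were 24.9%, 14.4%, 14.9% and 10.7%.

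The first comparison asks how the pan-receptor agonist differs from vitamin A for these genes. With ATRA, 8 of 9 members were lower, as were 65% of all genes compared, and Ep300 was higher, at a log2 ratio of 0.16. Ncoa3 (-1.41) and Nrip1 (-1.15) were at least 2-fold lower, which is 2 of 9 members, where 22.9% of the 14794 genes compared were at least 2-fold lower, 8.6% at least 2-fold higher and 31.5% at least 2-fold apart either way. In 6 of 9 members, namely Ncor1, Ncoa1, Ncoa3, Nrip1, Hdac3 and Med1, all quadrants of ATRA lay below those of VitaminA, and so they did in 36.1% of all genes. No member had all quadrants above VitaminA, as 13.2% of all genes had. The median of the members was -0.65 and that of all genes -0.33. When the lowest class was at 0 the medians were -0.63 and -0.60, so the members then lay close to the whole. Mesenchymal and astroglial markers were also lower with ATRA, summing to 47.0 and 77.6 ppm against 214 and 169.6 ppm in VitaminA, and their part in these ratios was not tested.

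The second comparison asks the same for the agonist of receptor alpha. With BMS753, 6 of 9 members were lower, against 36.2% of all genes. When the lowest class was at 0 they were 5 of 9 against 42.9%, with Ncor1 and Crebbp then higher and Ep300 lower. Ncoa3 alone was at least 2-fold lower (-1.41), where 10% of the 15676 genes compared were at least 2-fold lower, 17.7% at least 2-fold higher and 27.7% at least 2-fold apart either way. Hdac3 (-0.99) and Med1 (-0.94) came next, and Ep300, Ncoa2 and Ncoa1 were higher. For Ncoa3 and Hdac3 all quadrants lay below those of VitaminA, which is 2 of 9 members against 14.9% of all genes, and all quadrants lay above in 0 of 9 members against 23.2% of all genes. The median of the members was -0.04 where that of all genes was 0.31, or -0.14 and 0.14 when the lowest class was at 0. Relative to all genes, Ncoa3 had -1.72, Hdac3 -1.30 and Med1 -1.25, and with the lowest class at 0 they had -1.42, -1.05 and -0.97. The sum of erythroid markers, with 2 of 4 listed, was 55.0 ppm in BMS753 against 8.97 ppm in VitaminA, and its part in these ratios was not tested.

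The third comparison sets agonists of receptors gamma and beta against vitamin A. With BMS961+BMS641, 8 of 9 members were lower, as were 64.8% of all genes, and Ncoa1 was higher (0.46). Ncoa2 (-1.29) and Med1 (-1.11) were at least 2-fold lower, which is 2 of 9, where 19.9% of the 14959 genes compared were at least 2-fold lower, 10.2% at least 2-fold higher and 30% at least 2-fold apart either way. All quadrants lay below those of VitaminA for Ncoa2, Nrip1, Crebbp and Med1, which is 4 of 9 members against 32.4% of all genes. None lay wholly above, where 14.3% of all genes did. The median of the members was -0.58 and that of all genes -0.25. When the lowest class was at 0 these were -0.68 and -0.51. All 3 of these comparisons share the VitaminA section, so a gene that was high there alone is low in each of them. Of the epithelial markers, Epcam stood at 921 ppm and Cdh1 at 502 ppm in this section, against 11.5 and 41.2 ppm in VitaminA, while Krt8 was lower and Krt18 stood at 3.59 against 2.75 ppm. Astroglial and mesenchymal markers summed to 80.7 and 69.3 ppm, below VitaminA as with ATRA. Of the astroglial list, Aldh1l1 went the other way, at 18.7 ppm against 10.5 ppm in VitaminA, and the rest were lower. The part of these markers in the ratios was not tested.

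BMS753 and ATRA share a dose, so the agonist of receptor alpha could be set directly against the pan-receptor agonist. Of the 8 members past the filter of 5 ppm, which Hdac3 missed in both sections, 6 were higher with BMS753 and 2 lower. Of the 14902 genes compared, 19.6% were lower and nearly all others higher. No member differed by 2-fold, where 33.8% of all genes did, 26.4% higher and 7.39% lower. The counts of higher genes follow the whole, since the median of all genes was 0.71 and that of the members 0.47. Ncoa1 had the highest ratio, 0.83 (0.37 to 1.26), followed by Ncoa2 with 0.70 (0.14 to 1.06), both positive in all 16 pairs of quadrants. Ncoa3 had 0.00 (-0.74 to 0.82) and Med1 -0.09 (-1.80 to 0.93). Relative to all genes, Ncoa1 was at 0.12 and the other 7 were below 0, though with the lowest class at 0 Ncoa2 (0.07) and Nrip1 (0.01) also lay above it. In spots with 3000 to 5000 genes above the lowest class, with that class at 0, Ncoa2 (1.08) and Nrip1 (1.00) passed 2-fold, as 37.7% of all genes did in the same direction.

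**Figure D4:**
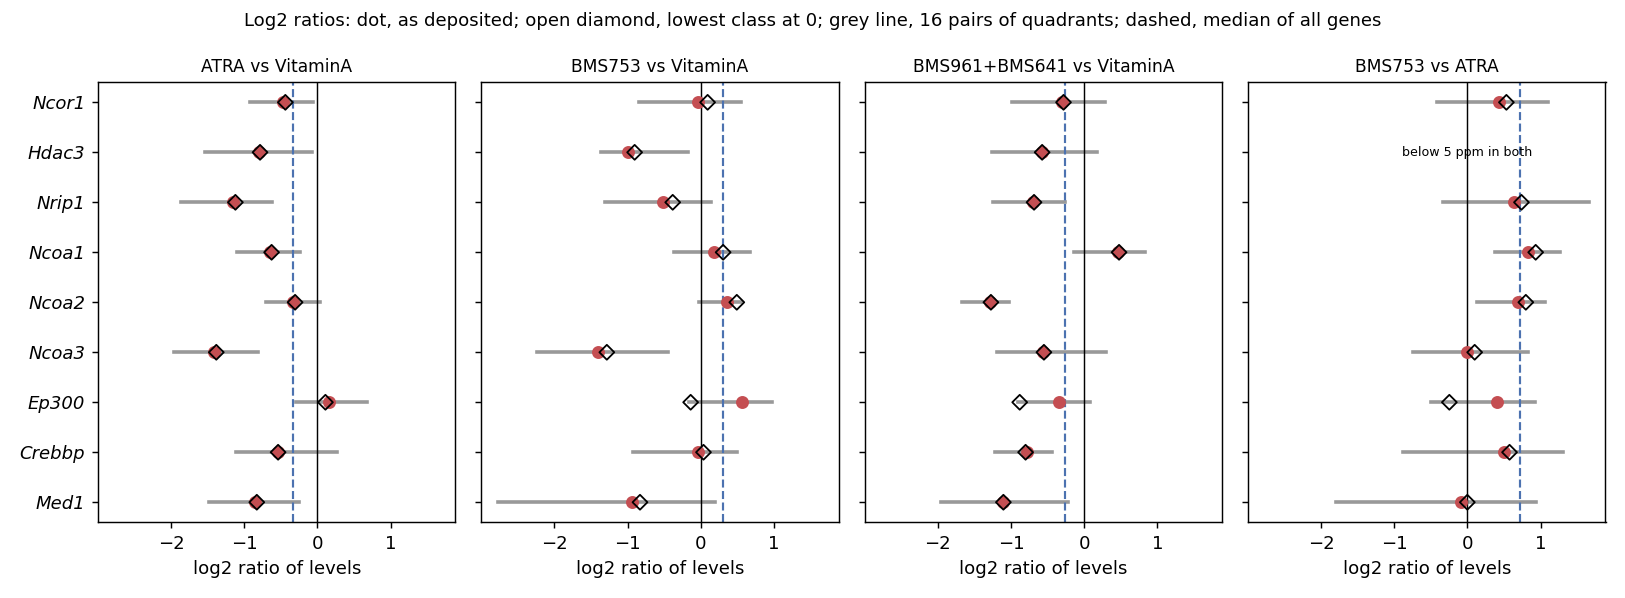
Log2 ratios of levels for the 9 members in 4 comparisons. Dots are whole sections as deposited, open diamonds whole sections with the lowest class at 0, grey lines the range over 16 pairs of quadrants, and the dashed line the median of all genes. Ncoa3 lies furthest left with ATRA and with BMS753 (-1.41 each), and Ncoa2 with BMS961+BMS641 (-1.29).

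Spots differed in how many members they showed. On average a VitaminA spot had 4.73 members above the lowest class, a BMS961+BMS641 spot 4.39, a BMS753 spot 3.37 and an ATRA spot 3.33. This order is also that of a measure of the whole library except for its last places, since the median number of genes above the lowest class was 4659, 4462, 3330 and 3388. Spots in which no member was above it made up 0.181% in VitaminA, 2.47% in BMS961+BMS641, 5.97% in BMS753 and 5.73% in ATRA. All 9 members were above it together in 3 spots of BMS961+BMS641, 2 of ATRA and none elsewhere. Within a section, spots above the median number of genes held 5.62 members on average in VitaminA and the other spots 3.84, and in ATRA these means were 4.45 and 2.22.

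A transcript of the steroid receptor coactivators was found beside Ncor1 in most spots that showed the latter. Of the spots with Ncor1 above the lowest class, at least 1 of Ncoa1, Ncoa2 and Ncoa3 was above it in 98.1% in VitaminA, 96.8% in BMS961+BMS641, 90.8% in BMS753 and 90.5% in ATRA. Among spots without Ncor1 the shares were 95.8%, 89.3%, 83.9% and 80.4%. Ep300 was above the lowest class in 20.8% of VitaminA spots with Crebbp and in 13.8% of those without it. In BMS961+BMS641 these shares were 18.9% and 8.42%. Spots with more genes above the lowest class are more likely to show any gene, and these shares are not corrected for that.

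**Figure D5:**
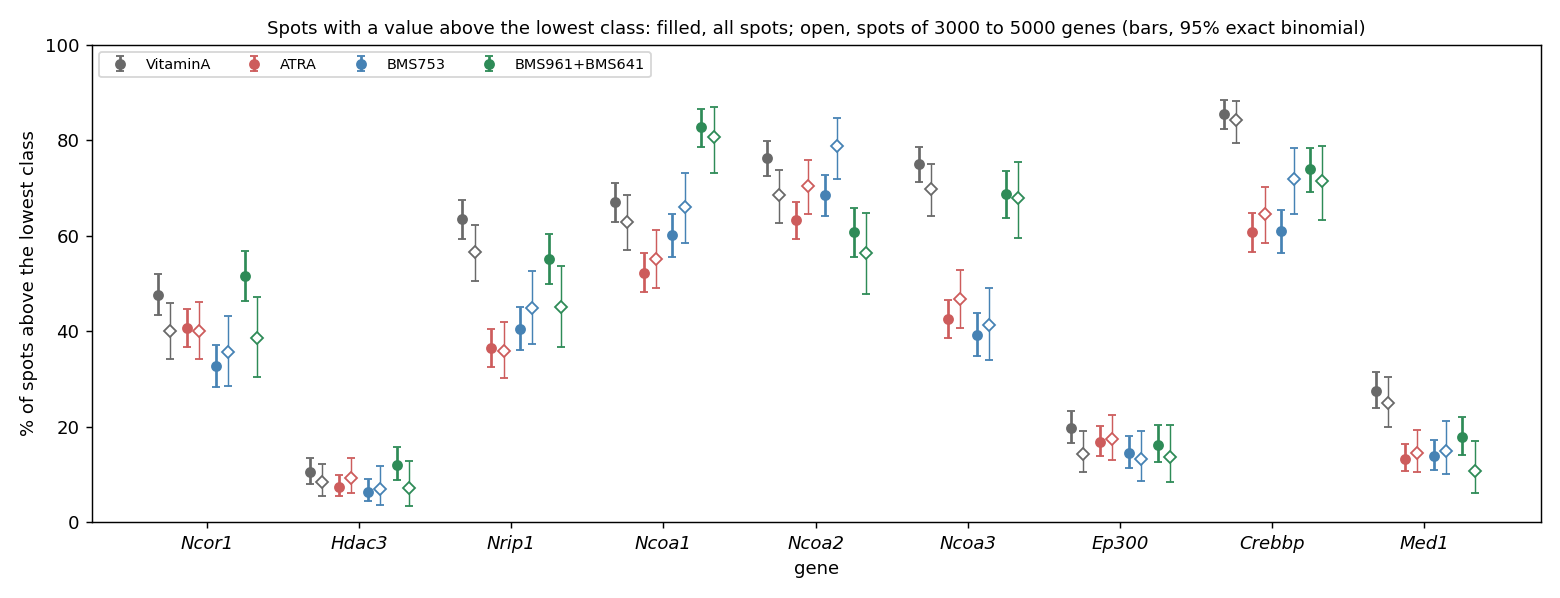
Percent of spots in which each member was above the lowest class, by section. Filled circles are all spots, open diamonds spots with 3000 to 5000 genes above the lowest class, and bars 95% exact binomial intervals of counting error. Ncoa3, Nrip1 and Med1 stand lower with ATRA and BMS753 than with VitaminA by both measures, and Ncoa1 is highest in BMS961+BMS641.

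Neighbouring spots resembled each other little for these genes. Moran's I over 8 grid neighbours, a correlation of a spot with its neighbours, was computed on log2 values with the factor of each spot divided out. For the 8 members other than Ep300 it lay between -0.02 and 0.10 in all sections. The median over 4610 genes seen in at least 20% of the spots of every section was between 0.02 and 0.04. It leaves out genes named Gm with a number or with a name ending in Rik. Of these 8 members, Hdac3 (at most 12.1% of spots) and, with the ligands, Med1 (at most 17.8%) fell short of that 20%. The number of genes above the lowest class had a Moran's I of 0.34 to 0.55. The highest values of those 8 members were those of Ncoa1 in BMS753 (0.10) and Ncoa2 in VitaminA (0.10). When the spot factor was kept, Crebbp had 0.10 to 0.19, Ncoa2 0.15 in VitaminA and Ncoa1 0.14 in BMS961+BMS641. Ep300 had 0.14 to 0.25 as deposited, but 0.08 in ATRA and -0.04 in BMS961+BMS641 over 4 neighbours, and -0.01 to 0.05 with the lowest class at 0. Across spots of a section, which share a library, the Spearman correlation of 2 members was between -0.29 and 0.17 over the 36 pairs, with section medians between 0.00 and 0.06. With the lowest class at 0 it was between -0.07 and 0.17. The pairs with the highest means over sections were then Ncoa1 with Crebbp (0.13) and Ncoa3 with Nrip1 (0.11), while the members themselves correlated with the number of genes above the lowest class at 0.11 to 0.36.

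Other coregulators went both ways, and their counts are to be read against the shares of all genes: 8.6% at least 2-fold higher and 22.9% lower with ATRA, 17.7% and 10% with BMS753, and 10.2% and 19.9% with BMS961+BMS641. Of 20 corepressor partners, 16 passed the filter with ATRA, 3 of them at least 2-fold higher and 6 at least 2-fold lower than VitaminA. Hdac5, a class II deacetylase gene, stood at 413 ppm in ATRA against 21.6 ppm (log2 ratio 4.20), and Sin3a, the scaffold gene of another deacetylase complex, at 9.19 ppm against 76.4 ppm (-2.93). Sin3a was also low with BMS753 (-1.85) and with BMS961+BMS641 (-2.36). With BMS753, 1 of 17 corepressor partners was at least 2-fold higher and 4 at least 2-fold lower, and with BMS961+BMS641 2 of 16 and 4 of 16. Ctbp2, whose corepressor product binds NAD, had -1.58 with BMS753, and its relative Ctbp1 had 1.94 with BMS961+BMS641.

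Among 19 other coactivators, those at least 2-fold higher and lower than VitaminA numbered 2 and 3 of 17 with ATRA, 1 and 2 of 17 with BMS753, and 2 and 4 of 18 with BMS961+BMS641. The lower genes were 17.6%, 11.8% and 22.2% of the list, near or below the shares of all genes. Kmt2c, a histone methyltransferase gene, stood at 1052 ppm in ATRA against 81.3 ppm in VitaminA (3.68), with 98.5% of ATRA spots above the lowest class. Its relative Kmt2d had -2.43 with BMS961+BMS641 and -1.23 with BMS753, or -3.38 and -1.83 when the lowest class was at 0. Smarca4, which encodes an ATPase of the BAF complex, had 1.74 with ATRA. Between the ligands of equal dose, Kmt2c had -2.68 and Carm1, an arginine methyltransferase gene whose product works with the steroid receptor coactivators, 1.72.

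Of 32 other Mediator genes, those at least 2-fold higher and lower than VitaminA numbered 0 and 8 of 22 with ATRA, 3 and 4 of 23 with BMS753, and 2 and 7 of 20 with BMS961+BMS641. The lower genes were 36.4%, 17.4% and 35% of the list, against 22.9%, 10% and 19.9% of all genes. Med13, a subunit gene of the Mediator kinase module, was lower in each, at 37.4, 28.3 and 25.0 ppm against 142.8 ppm in VitaminA, with log2 ratios of -1.91, -2.30 and -2.47. Med7 had -2.26 with ATRA and -1.86 with BMS753. Cdk8, the kinase gene of that module, stood at 389 ppm in BMS961+BMS641 against 18.5 ppm in VitaminA (4.32), and Med10 had 2.71 there. Relative to all genes, the median of this list was -0.25 with ATRA, -0.06 with BMS753 and -0.11 with BMS961+BMS641, or -0.11, 0.02 and -0.25 when the lowest class was at 0.

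The receptors that these proteins bind were listed as well. Among the 6 genes of retinoic acid and retinoid X receptors, 5 were lower than VitaminA in each ligand section, though not the same 5. The gene that was higher was Rxrg with ATRA and with BMS961+BMS641, and Rarb with BMS753. Of all genes, 65% were lower with ATRA, 36.2% with BMS753 and 64.8% with BMS961+BMS641. At least 2-fold lower were 3 of the 6 with ATRA and 1 each with BMS753 and BMS961+BMS641, against 22.9%, 10% and 19.9% of all genes. The gene at least 2-fold lower with BMS753 and with BMS961+BMS641 was Rxrb, named after its values were seen. It stood at 7.17 ppm in VitaminA and near 1 ppm in the ligand sections. Rxra, a common partner of the retinoic acid receptors, stood at 63.9 ppm in VitaminA, 23.2 ppm in ATRA, 55.1 ppm in BMS753 and 56.2 ppm in BMS961+BMS641. Rarg, the gene of receptor gamma, stood at 53.6, 15.3, 34.2 and 27.2 ppm in the same order.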

How the data were processed

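Spatial transcriptomes were measured in 4 cryosections, 1 per group, on printed barcoded poly-T arrays, per the labels' protocols. The authors deposited 1 table per section of a non-negative signal for genes by spots, quantile normalised according to the file names. In each section all spots were checked to share 1 sorted series of values, scaled by a spot-specific factor. Per the submitters' processing notes, mm9 was used as the genome build. Which aligner, counting and spot filter were used is not given in the sources used here. Genes were matched by symbol without regard to case.

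Levels were means over spots in ppm. Log2 ratios used a pseudocount of 1 ppm, on which scale changes of low genes are understated, and a gene was compared if it reached 5 ppm in 1 of the sections. Quadrants were cut at the median of both array coordinates. With 1 section per group no p-value or standard error was computed. The members and lists were chosen with earlier results of these data known. All members were named, and of each of the 4 lists the 3 genes of at least 20 ppm with the largest absolute ratio of a comparison were eligible, of which some are given. Genes of like pattern were the 2 with the highest mean Spearman correlation per member. The log2 ratios and the share of true zeros in the lowest class were tried on simulated counts. The quadrant, neighbour, correlation and sequence steps were not. Computations used scipy 1.17.1, numpy 2.4.6 and pandas 2.3.3 under Python 3.11.15, with matplotlib 3.10.9 for plots. Some genes of the lists are not reported here by name.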

Additional observations from a re-analysis of the deposited data

How the results depend on the processing

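The alternatives changed the treatment of the lowest class and spot factor, the scaling and its sum, the filter, the pseudocount and the mean over spots. Spots with 3000 to 5000 genes above the lowest class were added after seeing the data. With no scaling to ppm, the median log2 ratio of the members was -1.06 with ATRA, -0.49 with BMS753 and -0.11 with BMS961+BMS641. The medians of all genes were then -0.73, -0.16 and 0.31, and 83.3%, 57.4% and 35.8% of all genes were lower than VitaminA. In that setting 5, 3 and 1 members were at least 2-fold apart from VitaminA, the last of these being Ncoa1 (1.02). Centred on all genes, the medians were -0.32, -0.34 and -0.33, with 1, 3 and 1 members at least 2-fold apart, and -0.25 for BMS753 against ATRA. Without the 5% highest and lowest spots the medians were -0.39 with BMS753, where 2 members passed, and -0.75 with BMS961+BMS641. Those of all genes were then 0.38 and -0.18. With the top 10 genes left out of the sum 2 members passed with BMS753, and with a pseudocount of 5 ppm or a filter of 20 ppm 1 member passed with BMS961+BMS641. In the added spots the median was -0.38 with BMS753, where that of all genes was 0.15. There 2 members passed between BMS753 and ATRA, both higher with BMS753, as were 37.7% of all genes. For the other settings of this paragraph the share of all genes past 2-fold was not computed, so their counts of members have no such share beside them. No member ratio of at least 2-fold changed its direction in the alternatives run. Of 35 ratios, 5 changed sign with the lowest class at 0, 5 with no scaling, 5 in the added spots and 6 when centred. With the spot factor divided out 2 did, among them Med1 between BMS753 and ATRA (0.44). Depth is unknown, so no floor can be given for sparse genes such as Hdac3. No paired analysis was possible because each group has 1 section.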

Other observations

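For each member the genes of most like pattern over spots were listed among 4610 genes seen in at least 20% of the spots of every section. Genes named Gm with a number, or with a name ending in Rik, were left out. The correlations are descriptions over spots that share a library and a depth. Crebbp had its highest mean Spearman correlation with Gpr137b-ps, a transcribed pseudogene in RefSeq, with a mean of 0.24 and section values from 0.19 to 0.26. With the lowest class at 0 the mean was 0.27 and the values ran from 0.20 to 0.29. No other member reached a mean of 0.18 with any gene searched in that setting. Gpr137b-ps stood at 1771 ppm in VitaminA and at 1284 to 1330 ppm in the ligand sections.

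Ep300 had the highest likeness of any member as deposited, with Cyth4 at a mean of 0.41 and Slc7a2 at 0.38. All 3 genes stand near the end of the VitaminA rows, Ep300 at 94.8%, Cyth4 at 99.7% and Slc7a2 at 97.4% of their number. With the lowest class at 0, the genes most like Ep300 were Racgap1 and Rbm6, both at a mean of 0.13. The other 7 members had means between 0.11 and 0.17 with the genes most like them as deposited, among which were Gaa and Rorb for Ncoa3 and Ap2b1 for Nrip1.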
